A study of Homo sapiens with 4 samples.

Results

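Fibrinogen and 6 other secreted proteins best known from the liver were followed in A549 cells, a human lung adenocarcinoma line. The 9 genes are FGA, FGB and FGG, which encode the Aα, Bβ and γ chains of fibrinogen, FGL1, SERPINA1, SERPINA3, TF, TTR and APOH. They were picked by gene symbol from the 23143 symbols of the deposited expression table, all 9 were found, and 6 of them reached a mean of 1 FPKM (sequenced fragments relative to the length of the transcript and the size of the library). They were chosen with values of these libraries already known, so their levels and differences are described and not tested.

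The cells carry GATA4 that doxycycline switches on, GATA4 being a DNA-binding factor with zinc fingers that acts in endoderm and heart. There were 2 libraries of polyadenylated RNA with doxycycline, labelled as overexpressing GATA4 (DOX), and 2 without it, labelled as having a normal GATA4 level (noDOX), for which the design text names a vehicle. All 4 come from the same line, the labels do not say whether libraries came from separate cultures, and cells given doxycycline without the inducible GATA4 were not analysed here. GATA4 itself was at 75.0 and 48.0 FPKM in DOX libraries 1 and 2, against 12.2 and 14.5 FPKM in noDOX libraries 1 and 2. Its log2 difference was 2.09 (SE 0.30), which missed the threshold over all genes (limma, adjusted p = 0.289).

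Fibrinogen is a plasma protein built from pairs of 3 chains, each from its own gene, and thrombin turns it into the fibrin of a clot. Hepatocytes make nearly all of it, under C/EBP and other factors, and raise it in the acute phase response, in which IL6 acts through STAT3. Outside the liver, fibrinogen has been found to be made by lung epithelial cells including A549, where IL6 and glucocorticoid raise it. SERPINA3 also belongs to the acute phase proteins, whereas transthyretin and transferrin are lowered in that response.

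The promoters of the fibrinogen genes and of APOH are shown because those of FGB, FGA and FGG lie in 1 gene cluster whose members differed in how far they were lower with doxycycline, and because APOH was not lower. Each window runs from 250 bases before to 50 bases after a RefSeq start, on the GRCh38.p14 build, and is written along the gene. FGB is at chr4:154562730-154563029 (plus strand), FGA at chr4:154590693-154590992 (minus), FGG at chr4:154612607-154612906 (minus) and APOH at chr17:66229366-66229665 (minus). For FGB, with 2 starts in the table, the upstream one is shown. Capitals mark matches on either strand to CTGGGA (the core of the IL6 response element of acute phase genes), TTGCNNAA (C/EBP) and the GATA motif, which is GATAA or GATAG with A or T before it.
FGB: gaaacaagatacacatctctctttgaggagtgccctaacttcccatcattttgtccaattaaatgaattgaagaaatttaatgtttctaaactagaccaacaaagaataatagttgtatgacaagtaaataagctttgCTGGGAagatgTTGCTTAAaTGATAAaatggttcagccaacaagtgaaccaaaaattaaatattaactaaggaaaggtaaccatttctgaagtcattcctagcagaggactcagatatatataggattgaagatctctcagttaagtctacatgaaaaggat
FGA: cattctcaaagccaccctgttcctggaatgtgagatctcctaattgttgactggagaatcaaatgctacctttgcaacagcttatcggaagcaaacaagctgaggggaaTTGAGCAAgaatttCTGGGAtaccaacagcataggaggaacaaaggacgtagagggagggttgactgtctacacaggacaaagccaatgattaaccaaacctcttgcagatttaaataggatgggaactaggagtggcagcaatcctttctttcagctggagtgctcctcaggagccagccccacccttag
FGG: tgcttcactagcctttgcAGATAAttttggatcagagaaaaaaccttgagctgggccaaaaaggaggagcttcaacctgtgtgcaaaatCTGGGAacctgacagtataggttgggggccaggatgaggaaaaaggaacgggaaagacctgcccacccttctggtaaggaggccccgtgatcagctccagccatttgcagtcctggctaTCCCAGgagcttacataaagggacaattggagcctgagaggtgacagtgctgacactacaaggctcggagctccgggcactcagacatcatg
APOH: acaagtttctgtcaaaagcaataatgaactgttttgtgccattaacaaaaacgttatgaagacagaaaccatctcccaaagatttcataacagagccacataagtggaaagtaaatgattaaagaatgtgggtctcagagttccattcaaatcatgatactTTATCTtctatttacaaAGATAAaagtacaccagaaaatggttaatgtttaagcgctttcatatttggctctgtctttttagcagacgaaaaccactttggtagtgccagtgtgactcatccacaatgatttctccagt

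CTGGGA was present once in the FGB and FGA windows, at 112 and 127 bases before the start, and in 2 places in FGG, while the APOH window held 0 matches. TTGCNNAA occurred in FGB and FGA only among these windows. A GATA motif lay 92 bases before the FGB start, next to the C/EBP match, and 232 bases before the FGG start, FGA had 0, and APOH had 2. No matches to different motifs overlapped in these 4 windows. Over all 35116 windows of the table, 33.3% held CTGGGA, 10.5% TTGCNNAA and 25.0% a GATA motif. A match is a run of letters in the reference genome, and binding was not measured. Of the 9 genes 7 had a window, and FGL1 and TTR had none in the table. SERPINA3, SERPINA1 and TF, whose DOX values were also lower without overlap, did not share one pattern of matches. The SERPINA3 window held 2 GATA matches, 0 to CTGGGA and 0 to TTGCNNAA. SERPINA1 and TF have 2 starts each in the table, with 0 matches to any of the motifs at the first, while the second held 2 CTGGGA matches for SERPINA1 and 1 TTGCNNAA match for TF.

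The fibrinogen chains were among the more abundant transcripts of these cells, and FGB differed most with doxycycline. FGB was at 21.6 and 71.3 FPKM in DOX libraries 1 and 2, against 180 and 165 FPKM in noDOX libraries 1 and 2. The DOX values were the lower ones without overlap, with means of 46.4 ± 35.1 and 172 ± 10 FPKM (SD, n = 2 each), so that the noDOX mean was 3.71 times the DOX mean. On the log2(FPKM + 1) scale, which understates differences of low genes, the difference was -2.10 (SE 0.61).

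FGG, which encodes the γ chain with its sites for platelets and for factor XIII crosslinks, was at 88.1 and 251 FPKM in DOX libraries 1 and 2, against 301 and 313 FPKM in noDOX libraries 1 and 2. The groups did not overlap, yet DOX library 2 was much nearer to the noDOX libraries than DOX library 1 was. The log2 difference was -1.04 (SE 0.58). FGA, which encodes the Aα chain from which thrombin cuts fibrinopeptide A, was at 54.2 and 115.1 FPKM in DOX libraries 1 and 2, against 118 and 114.9 FPKM in noDOX libraries 1 and 2. DOX library 2 thus lay within the noDOX range and DOX library 1 alone was low. The FGA log2 difference of -0.56 (SE 0.44) became -0.02 without DOX library 1. That library also set much of the size for the other chains, since without it the difference was -0.29 for FGG and -1.26 for FGB.

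The DOX libraries differed from each other more in fibrinogen than in most genes. DOX library 2 held 3.29 times the FGB, 2.85 times the FGG and 2.12 times the FGA of DOX library 1, while between the noDOX libraries these ratios, library 2 over library 1, were 0.92, 1.04 and 0.97. Only 1.53% of the 12504 genes that averaged 1 FPKM or more had as large a gap between the DOX libraries as FGB, 1.78% as large a gap as FGG and 3.82% as large a gap as FGA. The library with less fibrinogen, DOX library 1, was the one with more GATA4 (75.0 FPKM, against 48.0 FPKM in DOX library 2). With 2 libraries this cannot be told apart from any other way in which they differ. In bulk RNA, fewer cells making a transcript and less of it per cell cannot be told apart either.

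Ranked among the 21542 genes outside the small RNA classes, FGG stood at 902 and 423 in DOX libraries 1 and 2, against 399 and 267 in noDOX libraries 1 and 2, rank 1 being the highest FPKM. FGB stood at 3516 and 1367 in the DOX libraries, against 638 and 470 in the noDOX libraries. The FGA ranks, 1480 and 874 in the DOX libraries against 922 and 689 in the noDOX libraries, overlapped between the groups.

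Within a library the proportions of the chains do not depend on how libraries are scaled. FGB made up 13.2 and 16.3% of the summed FPKM of the chains in DOX libraries 1 and 2, against 30.0 and 27.9% in noDOX libraries 1 and 2. The FGB share was thus low in both DOX libraries although their sums, 164 and 437 FPKM, differed widely, while the noDOX sums were 599 and 593 FPKM. FGA took 33.0 and 26.3% in the DOX libraries and 19.8 and 19.4% in the noDOX libraries, again without overlap. The FGG share was nearly the same throughout, at 53.8 and 57.4% in the DOX libraries and 50.2 and 52.7% in the noDOX libraries.

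As a ratio of FPKM, FGB over FGA was 0.40 and 0.62 in DOX libraries 1 and 2, against 1.52 and 1.44 in noDOX libraries 1 and 2. Bβ transcripts were therefore fewer than Aα transcripts in both DOX libraries and more abundant in both noDOX libraries. FGB over FGG averaged 0.265 ± 0.027 in DOX libraries and 0.563 ± 0.049 in noDOX libraries (SD, n = 2 each). An exact permutation test of 2 against 2 libraries cannot go below a two-sided p of 0.33, and these ratios are given as a description with no test.

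FGL1, a secreted protein with a fibrinogen-like domain that hepatocytes make and that binds the T cell receptor LAG3, did not share the direction of the chains. It was at 81.4 and 106 FPKM in DOX libraries 1 and 2, against 73.0 and 43.9 FPKM in noDOX libraries 1 and 2. Both DOX values were the higher ones, though DOX library 1 and noDOX library 1 lay close together. The log2 difference was 0.70 (SE 0.36), and without noDOX library 2 it was 0.34. In the annotation used for overlaps FGL1 shares exon bases with a gene on the other strand.

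APOH, or β2-glycoprotein I, a phospholipid-binding plasma protein and the target of antiphospholipid antibodies, was at 57.2 and 45.5 FPKM in DOX libraries 1 and 2, against 54.8 and 30.7 FPKM in noDOX libraries 1 and 2. The groups overlapped. Its log2 difference of 0.31 (SE 0.36) turned to -0.10 without noDOX library 2.

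SERPINA3 and SERPINA1, of the serpin family that inhibits proteases by trapping them, were scarcer than fibrinogen by far and lower with doxycycline. SERPINA3, α1-antichymotrypsin, was at 3.41 and 5.57 FPKM in DOX libraries 1 and 2, against 7.36 and 9.65 FPKM in noDOX libraries 1 and 2, with no overlap. Its log2 difference was -0.81 (SE 0.28), and it ran from -1.10 to -0.52 when 1 library at a time was left out. SERPINA1, α1-antitrypsin, the main inhibitor of neutrophil elastase in the lung, was at 0.384 and 0.243 FPKM in the DOX libraries, against 1.10 and 2.04 FPKM in the noDOX libraries. Although its groups did not overlap either, its mean over the 4 libraries was below 1 FPKM. On log2(FPKM + 1) the SERPINA1 difference was -0.95, and with a pseudocount of 0.1 it was -1.98. SERPINA3 shares exon bases with another annotated gene on its strand.

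The carrier proteins of iron and thyroid hormone averaged below 1 FPKM. TF, transferrin, was at 0.0278 and 0.0281 FPKM in DOX libraries 1 and 2, against 0.766 and 0.106 FPKM in noDOX libraries 1 and 2. The values did not overlap, but the noDOX libraries differed from each other several-fold and the exons of TF overlap those of SRPRB in the annotation used. TTR, transthyretin, was at 2.35 and 0.453 FPKM in the DOX libraries, against 0.657 and 0.254 FPKM in the noDOX libraries. DOX library 1 alone stood apart. The TTR difference on log2(FPKM + 1) was 0.61 with all libraries and 0.01 without DOX library 1.

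The order of the levels differed between the groups. By mean FPKM it was FGG, FGL1, FGA, APOH and FGB in the DOX libraries and FGG, FGB, FGA, FGL1 and APOH in the noDOX libraries, followed in both by SERPINA3. In the noDOX libraries FGG, FGB and FGA did not overlap each other, while FGL1 and APOH did. In the DOX libraries each of those 5 overlapped the next in the order. TTR and SERPINA1 changed places below SERPINA3, and TF had the lowest mean in both groups, although it overlapped TTR in the noDOX libraries.

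Over the 9 genes, 3 had a higher and 6 a lower mean log2 value with doxycycline, and the median difference was -0.56, against -0.04 over the 12504 genes tested. Libraries did not overlap for 1 gene that was higher and 5 that were lower in the DOX libraries. Over all tested genes 32.0% did not overlap, 14.7% higher and 17.3% lower in DOX libraries, and since the 9 were picked with their values known, nothing is read from that difference. The median over the 9 ran from -0.87 without DOX library 2 to -0.29 without DOX library 1.

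Genes whose values across the 4 libraries were most like those of the chains were found by the Euclidean distance between centred log2(FPKM + 1) values and the mean of those of FGA, FGB and FGG. The 5 nearest were KYNU, KCNN4, CA12, INHBB and SQRDL, at distances of 0.178 to 0.323. KYNU, which encodes kynureninase of tryptophan breakdown, was at 54.7 and 132 FPKM in DOX libraries 1 and 2, against 227 and 198 FPKM in noDOX libraries 1 and 2. CA12, a membrane carbonic anhydrase, was at 30.9 and 68.7 FPKM in the DOX libraries, against 104.5 and 112 FPKM in the noDOX libraries. As with the chains, DOX library 1 was lowest in both. This likeness rests on 4 values per gene and is a description only.

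Most hepatocyte markers were scarce beside the abundant fibrinogen transcripts. Of 12 hepatocyte markers 9 were below 1 FPKM in all 4 libraries. The summed level of the list was 4.81 and 6.60 FPKM in DOX libraries 1 and 2, against 13.4 and 10.3 FPKM in noDOX libraries 1 and 2. The others were ASGR1, CPS1 and HPD. ASGR1 was at 1.40 and 1.37 FPKM in the DOX libraries, against 5.265 and 3.99 FPKM in the noDOX libraries. CPS1 was at 0.86 and 0.70 FPKM, against 2.39 and 1.97 FPKM. Both were lower in DOX libraries without overlap, while HPD overlapped, at 1.8 and 3.6 FPKM, against 4.4 and 1.8 FPKM. ALB, serum albumin, was at 0.0587 and 0.0356 FPKM in the DOX libraries, against 0.0129 and 0.0786 FPKM in the noDOX libraries. APOA2 was listed at 0 in all 4, and AFP, α-fetoprotein, was above 0 in noDOX library 1 alone, at 0.0145 FPKM. APOA1 and APOB, the main proteins of high and low density lipoproteins, reached at most 0.210 and 0.0033 FPKM. HP, haptoglobin, reached at most 0.178 FPKM, and FGL2, a relative of FGL1, at most 0.0520 FPKM. AFP, HP and FGL2 are not in the list of hepatocyte markers.

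Some markers of the line and of lung epithelium differed between the groups and others did not. KRT7 was at 197 and 1360 FPKM in DOX libraries 1 and 2, against 1944 and 1476 FPKM in noDOX libraries 1 and 2. EPCAM was also lower in DOX libraries without overlap. Of the 4 A549 markers tested, AKR1B10, AKR1C1 and ALDH1A1 were higher and ALDH3A1 was lower in DOX libraries, all without overlap. The epithelial keratins KRT8 and KRT18 were at 1728 FPKM or more in every library, and CDKN2A and CDKN2B, which A549 cells have lost, were listed at 0 in all. The alveolar markers NKX2-1, SFTPA1, SFTPB and SFTPC were below 1 FPKM in all 4 libraries. All 6 endothelial markers, 5 of 7 fibroblast markers and 8 of 10 blood cell markers were below 1 FPKM in all. The summed blood cell list was at 6.06 and 17.6 FPKM in DOX libraries 1 and 2, against 9.32 and 10.1 FPKM in noDOX libraries 1 and 2, and the fibroblast list at 2.28 and 3.07 FPKM, against 4.05 and 9.87 FPKM. The part of any of these lists in the results was not tested.

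Genes related to the 9 by pathway or family were counted in 10 lists with 177 symbols, of which 92 were tested. None passed (limma, adjusted p at most 0.05 over all genes), and over all 12504 genes 0.088% passed. An unadjusted p under 0.05 was found for 23 of the 92, and for 6.34% of all 12504 genes. The median log2 difference of the 92 was -0.02, with 21 of them higher and 26 lower in DOX libraries without overlap. Over all 12504 genes 14.7% were higher and 17.3% lower without overlap, and the counts for single lists below stand beside these shares. The lists were chosen with earlier results of these data known, so nothing is read from such differences. Adjusted p-values below are from limma.

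Other clotting genes lay on both sides. Of 19 coagulation and fibrinolysis genes 6 were tested, 3 with higher and 3 with lower mean log2 values. F10, which encodes factor X, whose active form makes thrombin from prothrombin, was at 19.5 and 9.57 FPKM in DOX libraries 1 and 2, against 0.456 and 0.344 FPKM in noDOX libraries 1 and 2. Both DOX libraries were far above both noDOX libraries, with a log2 difference of 3.39 (SE 0.36; adjusted p = 0.173). F10 passed when DOX library 1 was left out (2.92; adjusted p = 0.0278). It also passed when DOX library 2 was (3.87; adjusted p = 0.0117), and in both cases the single DOX library that remains is assumed to vary like the noDOX libraries. The 16 alternatives gave adjusted p-values for F10 between 5.07e-04 and 0.415.

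PROS1, protein S, a cofactor of activated protein C, was at 26.4 ± 1.2 FPKM in DOX libraries and 19.3 ± 2.1 FPKM in noDOX libraries (SD, n = 2 each; adjusted p = 0.907). SERPINF2, which inhibits plasmin, was at 0.886 ± 0.247 and 2.09 ± 0.60 FPKM in DOX and noDOX libraries (adjusted p = 0.778). Of the 19 genes 12 were below 1 FPKM in every library, F2 (prothrombin) and PLG (plasminogen) among them.

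Among plasma carriers and acute phase proteins, VTN had the widest difference above 0 and CP the widest below. Of 28 genes 7 were tested, 2 with higher and 5 with lower mean log2 values, and the median was -1.01. VTN, vitronectin, a plasma and matrix protein that stabilises the plasminogen activator inhibitor, was at 217 and 185 FPKM in DOX libraries 1 and 2, against 40.9 and 46.1 FPKM in noDOX libraries 1 and 2. Its groups were well apart, with a log2 difference of 2.18 (SE 0.27; adjusted p = 0.219). CP, ceruloplasmin, the copper-containing ferroxidase that helps load iron onto transferrin, was at 7.33 and 8.88 FPKM in the DOX libraries, against 48.4 and 107 FPKM in the noDOX libraries. The log2 difference was -3.01 (SE 0.43; adjusted p = 0.289).

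AHSG, fetuin A, was at 0.123 and 0.718 FPKM in DOX libraries 1 and 2, against 1.97 and 2.56 FPKM in noDOX libraries 1 and 2 (adjusted p = 0.567). RBP4, the retinol carrier that circulates bound to transthyretin, was at 0.132 and 0.704 FPKM in the DOX libraries, against 2.52 and 1.23 FPKM in the noDOX libraries (adjusted p = 0.770). Both were low in every library. CRP, the C-reactive protein, was listed at 0 in all 4. F10, VTN and CP overlap exons of another annotated gene, so part of their reads may belong to it. The same limit holds for APOE and CLU, with the overlap on the same strand. It also holds, on the other strand, for CEBPB, CEBPA, LIF, IL1R1, ICAM1, ANGPTL6, STEAP3, SEC23A and KYNU, among others.

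Among apolipoproteins 5 of 14 were tested, 2 with higher and 3 with lower mean log2 values, and the 3 lower ones did not overlap. The 2 higher ones, APOC1 and APOM, overlapped, with log2 differences of 0.53 (SE 0.61) and 0.035 (SE 0.25). APOE was at 2.96 ± 0.54 FPKM in DOX libraries and 6.77 ± 1.92 FPKM in noDOX libraries (SD, n = 2 each; adjusted p = 0.603). CLU, clusterin, an extracellular chaperone, was at 510 ± 88 and 724 ± 3 FPKM (adjusted p = 0.990), and APOL1 had a log2 difference of -0.42 (SE 0.26). Of the other clade A serpins only SERPINA6, the corticosteroid-binding globulin, was tested. It was at 0.689 and 2.49 FPKM in DOX libraries 1 and 2, against 12.1 and 7.09 FPKM in noDOX libraries 1 and 2. The log2 difference was -2.08 (SE 0.45, adjusted p = 0.520), and like SERPINA1 and SERPINA3 it was lower without overlap. SERPINA10, which like SERPINA1 averaged below 1 FPKM, was higher in DOX libraries without overlap. It was at 0.378 and 0.918 FPKM in the DOX libraries, against 0.305 and 0.265 FPKM in the noDOX libraries.

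The relatives of fibrinogen by domain were few. Of 19 genes with a fibrinogen-like domain 4 were tested, all 4 with lower mean log2 values. ANGPTL4, an inhibitor of lipoprotein lipase, was at 8.14 and 10.6 FPKM in DOX libraries 1 and 2, against 25.1 and 55.1 FPKM in noDOX libraries 1 and 2 (adjusted p = 0.520). FIBCD1, a chitin-binding receptor, was at 0.785 ± 0.285 and 3.40 ± 1.91 FPKM in DOX and noDOX libraries (SD, n = 2 each; adjusted p = 0.671), and ANGPTL6 had a log2 difference of -0.47 (SE 0.23). The remaining tested gene, ANGPT1, overlapped between the groups, with a log2 difference of -0.07 (SE 0.30), smaller than its SE. FGL1 had the opposite sign to ANGPTL4, FIBCD1 and ANGPTL6, which did not overlap.

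Of the signals and factors that drive fibrinogen in liver, the list of IL6 and glucocorticoid signalling had 15 tested genes, 6 with higher and 9 with lower mean log2 values. CEBPB, a C/EBP factor of the acute phase response, was at 18.3 and 46.2 FPKM in DOX libraries 1 and 2, against 119 and 117 FPKM in noDOX libraries 1 and 2. Both DOX libraries lay below the noDOX libraries. CEBPD, another C/EBP factor, overlapped, at 88.2 and 135 FPKM in the DOX libraries, against 172 and 121 FPKM in the noDOX libraries. A link between these factors and the fibrinogen levels was not tested. The CEBPB log2 difference was -1.98 (SE 0.49, adjusted p = 0.566). LIF, a cytokine of the IL6 family, was at 5.38 and 13.5 FPKM in the DOX libraries, against 30.7 and 35.5 FPKM in the noDOX libraries (adjusted p = 0.566). LIFR, its receptor, was at 15.8 and 7.39 FPKM in the DOX libraries, against 0.853 and 1.99 FPKM in the noDOX libraries (log2 difference 2.33, SE 0.44; adjusted p = 0.440).

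IL6 had a value above 0 in noDOX library 2 alone, at 0.0234 FPKM, and was listed at 0 in the others. Its receptor IL6R was at 4.01 ± 0.51 FPKM in DOX libraries and 4.17 ± 0.86 FPKM in noDOX libraries, and STAT3 at 54.5 ± 3.8 and 55.9 ± 15.5 FPKM (SD, n = 2 each). Both overlapped, and the sign of their differences changed with the scaling or the library left out. SOCS3 and IL6ST of the same list did not overlap. SOCS3 was at 8.73 and 13.8 FPKM in DOX libraries 1 and 2, against 20.5 and 35.2 FPKM in noDOX libraries 1 and 2 (adjusted p = 0.672). IL6ST was at 47.7 and 31.7 FPKM in the DOX libraries, against 17.8 and 22.6 FPKM in the noDOX libraries (adjusted p = 0.691). IL1R1, a receptor of interleukin 1, was at 22.5 ± 1.4 and 12.1 ± 1.1 FPKM in DOX and noDOX libraries (adjusted p = 0.520).

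The hepatocyte transcription factors were split, with 8 of 15 tested genes at higher and 7 at lower mean log2 values and a median of 0.03. HNF4A, a nuclear receptor that many liver genes depend on, was at 32.6 and 29.4 FPKM in DOX libraries 1 and 2, against 17.9 and 14.7 FPKM in noDOX libraries 1 and 2 (log2 difference 0.90, SE 0.22; adjusted p = 0.566). It was at higher values in both DOX libraries, in which FGB and FGG were lower, and a link between them was not tested. NR2F1, an orphan nuclear receptor, was at 8.46 ± 0.26 FPKM in DOX libraries and 18.7 ± 5.0 FPKM in noDOX libraries (SD, n = 2 each; adjusted p = 0.547), while CEBPA and NR5A2 had log2 differences of -0.22 (SE 0.21) and -0.30 (SE 0.18).

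Partners of transferrin and transthyretin were split too, with 4 of 10 tested genes higher and 6 lower by mean log2 value. SLC40A1, ferroportin, which exports iron from cells, was at 24.6 and 16.4 FPKM in DOX libraries 1 and 2, against 7.87 and 10.8 FPKM in noDOX libraries 1 and 2 (adjusted p = 0.619). STRA6, which takes up retinol from RBP4, was at 14.2 ± 2.7 and 29.6 ± 13.5 FPKM in DOX and noDOX libraries (SD, n = 2 each; adjusted p = 0.832), and STEAP3, an iron reductase, had a log2 difference of -0.38 (SE 0.24).

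Genes that fold and export secreted proteins mostly had slightly higher means with doxycycline. All 15 genes were tested, 12 had higher mean log2 values in DOX libraries, 5 of them without overlap, and the median was 0.09. Over all 12504 genes the median was -0.04, and 14.7% were higher and 17.3% lower without overlap. As the list was chosen with earlier results known, nothing is read from that difference. SAR1B, a small GTPase of the vesicle coat that leaves the endoplasmic reticulum, was at 8.63 ± 0.70 and 5.06 ± 0.76 FPKM in DOX and noDOX libraries (SD, n = 2 each; adjusted p = 0.634). The coat subunits SEC24A and SEC23A and the cargo receptor SURF4 had log2 differences of 0.71 (SE 0.28), 0.59 (SE 0.32) and 0.29 (SE 0.27). SAR1B and SEC24A lie next to each other and share exon bases on opposite strands, so their values may not be independent.

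Fibrinogen receptors and clot enzymes showed values in both directions, with 8 of 15 tested genes higher and 7 lower by mean log2 value. ICAM1, an adhesion molecule that binds fibrinogen, was at 0.355 and 0.239 FPKM in DOX libraries 1 and 2, against 1.82 and 1.92 FPKM in noDOX libraries 1 and 2 (log2 difference -1.15, SE 0.23; adjusted p = 0.491). TGM2, a transglutaminase, was at 28.6 ± 15.4 and 67.0 ± 25.4 FPKM in DOX and noDOX libraries (SD, n = 2 each; adjusted p = 0.827). PLAT, the tissue plasminogen activator, was at 1.87 ± 1.11 and 0.340 ± 0.091 FPKM (adjusted p = 0.737), and F3, tissue factor, which starts clotting, at 6.90 ± 3.63 and 2.83 ± 1.24 FPKM (adjusted p = 0.858).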

How the data were processed

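Polyadenylated RNA of 4 A549 libraries was sequenced, and the authors deposited 1 table of FPKM per gene symbol and library. Per the submitters' processing notes the build was hg19, and the tools were Cufflinks 2.2.1 with Cuffdiff, TopHat2 2.0.10 and Bowtie. The sources used here do not give the annotation, strand setting or library scaling. The values are model estimates, 192 of them far below what a single fragment could be worth, so they were not read as whole fragments and the depth is unknown. FPKM sums ran from 975700 to 1382000, with 34.8 to 41.9% in small RNA genes, and an exact 0 can be a failed estimate.

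The table was fitted as log2(FPKM + 1) for the 12504 genes averaging 1 FPKM or more, with limma 3.58.1 in R 4.3.3, group means, a mean-variance trend, two-sided p, Benjamini-Hochberg adjustment at 0.05 and 2 residual degrees of freedom. The p-values rest on the spread of these libraries alone, which may be a technical one. The fit was checked on simulated data with a common spread for all genes, a simpler setting than these libraries, so the check says little of them. The 9 genes and all lists were chosen with earlier results of these data known. Named genes were the 9, a set list of liver and signalling genes, from each list those that passed and up to 4 with the smallest p and no overlap, and the 5 most alike. Of the named genes 1 is not reported here. KRT8, KRT18, F2, PLG, CRP, SOCS3, IL6ST, CEBPD, APOC1, APOM, SERPINA10, ANGPT1 and the markers named were chosen after their values were seen. Promoters are RefSeq windows on GRCh38.p14. Exon overlaps come from GENCODE release 29, matched by symbol. Alternatives covered pseudocount, filter, scaling, moderation, small RNA genes, a replicate block and each library left out.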

Additional observations from a re-analysis of the deposited data

How the results depend on the processing

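Of the 144 values of the 9 genes under 16 alternatives, 141 moved by no more than the pooled SD between replicates. The 3 that moved more were SERPINA1 or TF with another pseudocount. Leaving out 1 library cannot move a value by more than that SD. Other filters, moderation, blocks or the omission of small RNA genes leave these differences unchanged. The count is thus no measure of stability, and without DOX library 1 FGA went from -0.56 to -0.02 and TTR from 0.61 to 0.01. The median of the 9 kept its sign in all 16. The number of genes that passed over the whole table was 11, and it was 7 with a pseudocount of 5, 1 with no filter on low values, 1 with small RNA genes left out, and 1 after rescaling without them (1 higher and 0 lower, against 3 higher and 8 lower). With 1 library left out it ran from 51 to 61. That rescaling moved the median log2 difference of all genes to 0.07, against -0.04. In the related lists 0 genes passed, and 0 to 1 with 1 library left out, F10 being that gene. With the replicate number as a block, 65 genes passed, 3 of them in the lists (CP, F10 and LIFR). The labels do not say whether the numbers pair the libraries. Same-numbered libraries deviated oppositely across 12112 genes (r = -0.758), which cannot show how libraries were prepared. With the pairing crossed, added after the data were seen, 7 genes passed and 0 in the lists. An unadjusted limma p under 0.05 then occurred for 2617 genes, against 793 without a block. Nothing is read from that, as the crossed pairing was picked from these values. STAT3 changed sign to 0.014 with median ratio scaling, 0.066 with quantile normalization and 0.12 after rescaling, and ran from -0.29 to 0.27 with 1 library left out. IL6R changed sign to 0.069 after rescaling and ran from -0.21 to 0.13. The cause was not tested. The depth behind the FPKM is unknown, which limits what can be said of TF, TTR and SERPINA1.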
